A study of Mus musculus with 2 samples.

Results

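The genes described here are 5 receptor genes of the natural killer complex (Klrd1, Klrc1, Klrk1, Klra2 and Klra17) and 3 genes best known from lymphoid cells (Il2rb, Cd3g and Nkg7). They were measured in bone marrow-derived dendritic cells, antigen-presenting cells grown from mouse marrow. These are 8 of 23786 genes that could be named on the array, and every array probe whose transcript accession belongs to one of them was taken, 10 probes in all. The 8 were picked because earlier results of the same 2 arrays were known, so their values are a description and no test was applied to them.

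1 array held RNA labelled Egr1-deficient and 1 held RNA labelled WT. Both samples are labelled C57BL/6J and male. EGR1 is a zinc-finger transcription factor made quickly after many stimuli. For both groups, femoral marrow cells were grown in medium with 10% serum and 10 ng/ml GM-CSF, a myeloid growth factor, and were collected on day 6. How the Egr1 allele was made and how many mice gave each culture are not stated in the sources used here. With 1 array per group there is no replicate error and no p-value.

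Each value below is named by the label of its array, since the labels could not be borne out. Egr1, on chromosome 18, read 1212 under the EGR1-deficient label and 379.7 under the WT label, which goes against the label. Its 1 probe may lie outside the altered part of the gene, which is not known here, and then it checks nothing. Xist, the RNA of the inactive X chromosome, read 4559 and 3425, against the male label of both arrays. Of 7 probes for 4 Y-linked genes, 1 probe, for Eif2s3y, was well above background, at 27.1 and 25.6. Every direction below therefore rests on labels that these genes do not bear out. Of 17 genes chosen to define dendritic cells, 16 were well above background on both arrays, as were 13725 of all 23786 named genes. Among the 16 were H2-Ab1 of MHC class II (21792 and 20863) and the integrin gene Itgax (777 and 572). This count does not by itself bear out the dendritic cell label. Xcr1 was not above background on either array.

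The natural killer complex is a cluster of genes for C-type lectin-like receptors, on chromosome 6 in the mouse. CD94, the product of Klrd1, pairs with an NKG2 protein such as NKG2A, the product of Klrc1, and reads the non-classical MHC molecule Qa-1. NKG2D, the product of Klrk1, reads stress-induced ligands and signals through the adaptors DAP10 and DAP12. The Ly49 receptors, encoded by the Klra genes, mostly read classical MHC class I, and the inhibitory ones recruit the phosphatase SHP-1. Ly49B (Klra2) and Ly49Q (Klra17) are unusual in the family because they are known from myeloid cells, Ly49Q above all from plasmacytoid dendritic cells. The other members have other roles. Il2rb, on chromosome 15, encodes the beta chain shared by the IL-2 and IL-15 receptors. Cd3g, on chromosome 9, encodes a chain of the T cell receptor complex. Nkg7, on chromosome 7, encodes a protein of cytotoxic granules.

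The Ly49 members Klra2 and Klra17 were the most alike of the 6 members with an upstream sequence at hand, which leaves out Klrd1 and Il2rb. The 250 bases before the start of each of the pair are therefore shown, 5′ to 3′. They were copied from RefSeq, build GRCm38.p6, at chr6:131247363-131247612 for Klra2 and chr6:129876673-129876922 for Klra17, both on the minus strand. Capitals mark runs of 12 or more bases found in both windows.

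Klra2: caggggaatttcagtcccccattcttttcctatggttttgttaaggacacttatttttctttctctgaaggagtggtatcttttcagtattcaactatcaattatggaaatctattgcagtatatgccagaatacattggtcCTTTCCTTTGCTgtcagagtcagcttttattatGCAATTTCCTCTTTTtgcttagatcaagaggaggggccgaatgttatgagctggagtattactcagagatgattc

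Klra17: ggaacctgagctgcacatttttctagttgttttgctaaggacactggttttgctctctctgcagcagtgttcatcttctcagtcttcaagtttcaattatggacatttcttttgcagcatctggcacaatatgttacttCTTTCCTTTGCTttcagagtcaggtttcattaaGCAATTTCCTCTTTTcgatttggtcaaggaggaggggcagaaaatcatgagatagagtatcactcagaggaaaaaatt

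In a global alignment the 2 windows were identical at 191 of 256 columns (74.6%). The other 14 pairs among the 6 members with a window (Klrc1, Klrk1, Klra2, Klra17, Cd3g and Nkg7) ranged from 40.9% to 50.2%. The Klra2 and Klra17 windows were poor in G and C, at 38.0% and 39.6% against a median of 52.4% over 32817 windows. This was not particular to the pair, since Klrc1 had 32.8% and Klrk1 42.8%, while Cd3g had 51.6% and Nkg7 56.0%. The EGR motif GCGNGGGCG was searched on both strands. It was in none of the 6 member windows and in 4.70% of all windows of this length, which says only that these letters are not in these 250 bases.

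CD94 gave the largest difference of the 6 members that were well above background on both arrays. Klrd1 read 226 ± 22.8 under the EGR1-deficient label and 70.3 ± 8.14 under the WT label, where each error is the scanner program's own estimate for the spot. The ranges do not overlap. Klrd1 had 1 probe with 1 spot per array, so these errors do not hold how probes of the same gene can differ. Levels were compared as log2 signal minus the array's 75th percentile of non-control spots. On that scale Klrd1 was 1.62 ± 0.22 log2 units higher under the EGR1-deficient label, or 3.07-fold, with the error combined from both spots. It stood 24th from the top of 13725 genes above background on both arrays. Of those genes 0.707% were at least 2-fold higher and 1.01% at least 2-fold lower, and since the member was chosen on this contrast nothing is read from its place. The difference was 1.02 after another background correction, normexp.

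NKG2A, the partner of CD94, was not measured well. Klrc1 read 13.4 ± 3.66 under the EGR1-deficient label and 4.01 ± 4.03 under the WT label. Neither spot was well above background, so no fold is given. That was also the state of 35.2% of all named genes.

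NKG2D was higher by a smaller step. Klrk1 read 239.6 ± 24.1 under the EGR1-deficient label and 146 ± 15.0 under the WT label, a difference of 0.65 ± 0.21 log2 units or 1.57-fold. This is under the 2-fold used for counts and more than the error of the spots. With normexp the difference was 0.37.

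**Figure D1:**
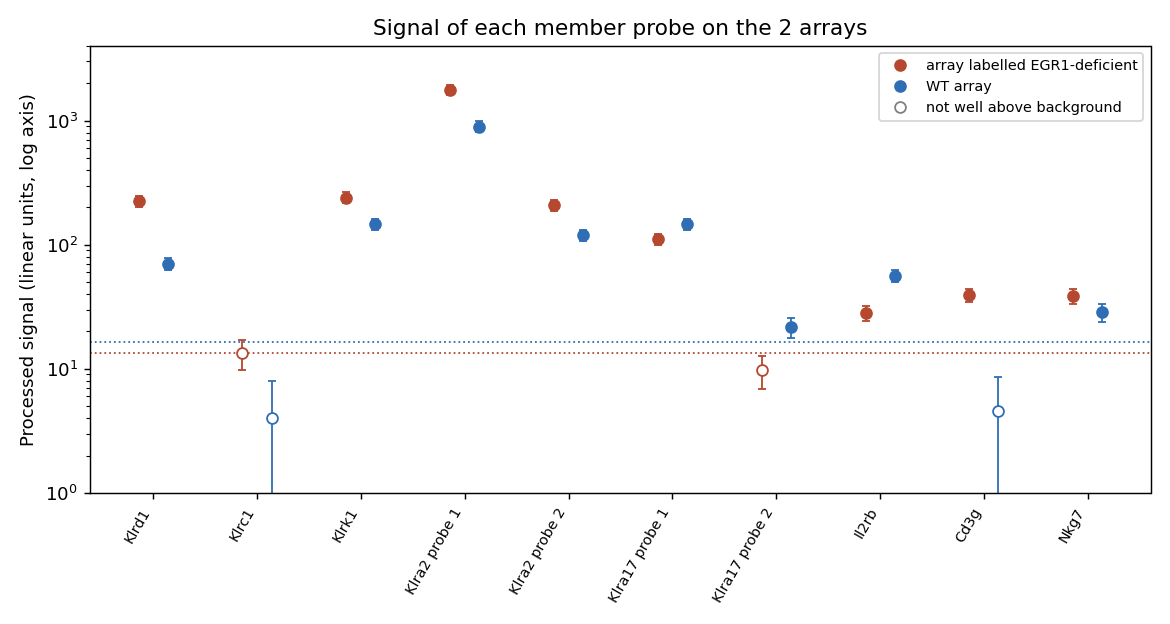
Processed signal (log axis) of the 10 member probes under the EGR1-deficient label and the WT array, 1 spot per point, with whiskers for the scanner program's error estimate, which run off the axis where they reach 0. Filled points are well above background, and dotted lines mark the lowest signal so called on each array (13.3 and 16.3). Klrd1, Klrk1 and both Klra2 probes are higher under the EGR1-deficient label, while both Klra17 probes and Il2rb are higher under the WT label.

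The Ly49 members known from myeloid cells went opposite ways. Klra2 read 1776 ± 178 under the EGR1-deficient label and 895 ± 89.6 under the WT label in its brighter probe, a difference of 0.92 ± 0.20 log2 units or 1.90-fold. A second Klra2 probe, for another RefSeq transcript, read 208 ± 21.1 and 119.7 ± 12.5, a difference of 0.73 ± 0.21. Both probes were higher under the EGR1-deficient label, with no overlap of their error ranges. Klra2 was under 2-fold as reported and just over it after quantile normalization (1.01), after loess (1.02) and in the authors' own deposited table of signals (1.04).

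The share of genes past 2-fold differed with signal, so it is given by signal too. When the 13725 genes were divided by mean signal into 4 groups of like size, 0.0291% of the brightest were at least 2-fold higher and 0.0874% at least 2-fold lower. That group holds Klra2. In group 2, counted from the dimmest, which holds Klrd1, Klrk1 and Klra17, the shares were 0.67% and 1.14%. Nothing is read from the places of the members, which were chosen on this contrast.

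Klra17 was lower under the EGR1-deficient label. Its brighter probe read 111 ± 11.6 there and 146 ± 15.2 under the WT label, a difference of −0.46 ± 0.21 log2 units. The other probe, for the same accession, read 9.81 ± 2.94 and 21.6 ± 3.95 and was well above background under the WT label only. It was at least 1.70-fold lower under the EGR1-deficient label. An at-least fold sets the bright signal against the higher of the dim probe's own signal and the lowest signal called well above background on that array. Both probes thus ran the same way.

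The pair whose windows were identical at 74.6% of aligned columns therefore differed in sign on these arrays. Ly49 genes resemble each other along their length, so a probe for one could bind RNA of another. The probe sequences were not used here and this was not tested.

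The lymphoid receptor chains were dim. Il2rb read 28.3 ± 3.99 under the EGR1-deficient label and 56.5 ± 6.55 under the WT label. The difference was −1.06 ± 0.26 log2 units, or 2.09-fold lower under the EGR1-deficient label, and Il2rb was the member with the lowest difference. It lay in the dimmest group by signal, where 1.89% of genes were at least 2-fold higher and 2.51% at least 2-fold lower. The difference was −0.46 with normexp and −0.95 in the authors' deposited table of signals, both short of 2-fold. As background, EGR1 has been described as acting on the promoter of the human IL2RB gene. Its part in the Il2rb difference was not tested, and the motif search held no Il2rb window.

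Cd3g was well above background on 1 array only. It read 39.1 ± 4.78 under the EGR1-deficient label and 4.56 ± 3.99 under the WT label, which makes it at least 2.29-fold higher on the former (1.20 log2 units). With normexp the bound fell to 0.35 log2 units. Of all named genes 5.45% were above background under the EGR1-deficient label only, against 1.62% under the WT label only. Of the former 14.8% passed 2-fold by the same bound, and of the latter 51.4%. The scanner program's mean net signal of negative controls was 41.3 under the EGR1-deficient label, which the program marked as out of its range, and 38.7 under the WT label, which it marked as in range. The part of this in calls on 1 array was not tested.

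Nkg7 was dim on both arrays. It read 38.7 ± 5.10 under the EGR1-deficient label and 28.5 ± 4.87 under the WT label, a difference of 0.37 ± 0.31 log2 units. This is close to the error of its spots, and with normexp the difference was 0.08. Probes printed 10 or more times on each array gave another view of the error. The 4 such probes with a mean signal under 100 had a median SD of 0.28 log2 units for the difference of a single spot, the 20 with a signal of 100 to 1000 had 0.12, and the 182 brighter ones had 0.08. Different probes of the same gene were compared in 3571 genes with 2 probes above background on both arrays. The SD of the difference over the 2 probes had a median of 0.17 log2 units and a root mean square of 0.31.

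Over the members, 1 of the 6 above background on both arrays was at least 2-fold higher (Klrd1) and 1 at least 2-fold lower (Il2rb), 4 were above 0, and the median difference was 0.51. Over all 13725 genes, 1.71% differed 2-fold in either direction (97 higher, 138 lower), 42.6% were above 0, and the median was −0.05. The split of all genes was 77 higher against 174 lower after quantile normalization, 73 against 184 after loess, and 103 against 68 in the authors' deposited table. In bulk RNA, fewer cells of a type and less RNA per cell cannot be told apart.

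**Figure D2:**
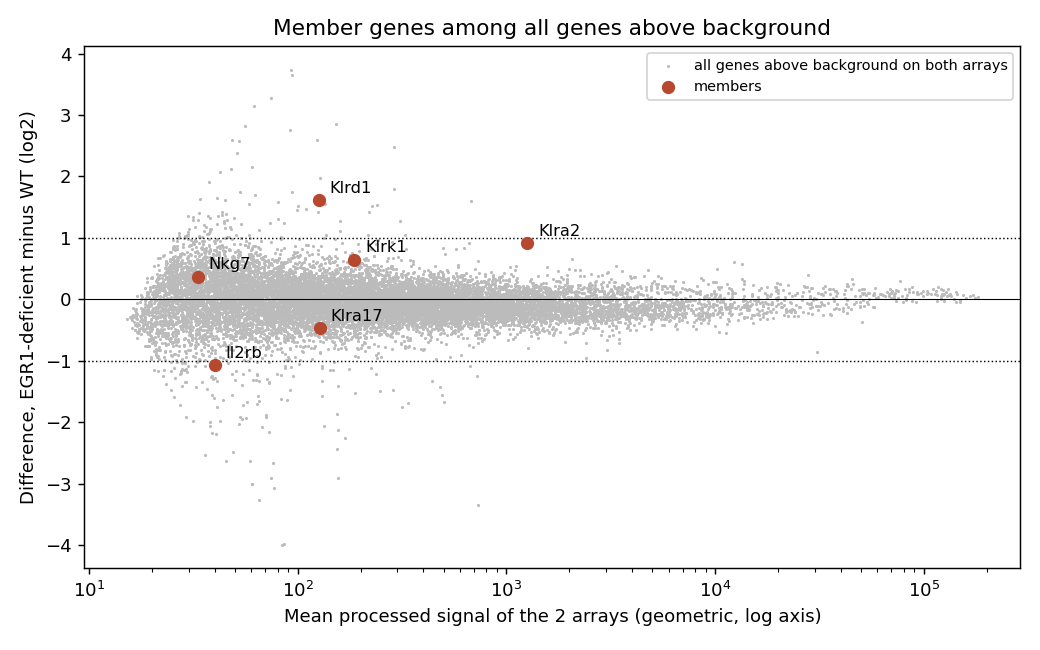
Difference between the arrays (EGR1-deficient minus WT, log2) against mean processed signal (geometric, log axis) for 13725 genes above background on both arrays in grey and the 6 members among them in red. Dotted lines mark 2-fold. Klrd1 lies at 1.62, Klra2 at 0.92 and Il2rb at −1.06, and the spread of the grey points is wider where the signal is low.

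The neighbours of the receptor members on chromosome 6 were read next, in the order of the RefSeq gene table. Between and beside the 5 members, from Klre1 to Magohb, 24 genes have a symbol other than a numbered placeholder, and 19 of them had a probe. Of the 14 that are not members, 3 were well above background on both arrays, 1 under the EGR1-deficient label only, 1 under the WT label only and 9 on neither. Most Ly49 genes were thus at background: Klra1, Klra4, Klra5, Klra6, Klra7 and Klra10 were not above it on either array, nor were Klrc3, Klri1 and Klrh1.

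Klre1, which lies directly beside Klrd1 and encodes a receptor that pairs with the Klri products, read 75.3 under the EGR1-deficient label and 9.51 under the WT label. That is at least 4.41-fold higher on the former. Its dimmer probe did not repeat this: it read 22.9 and 19.9, a difference of 0.14 ± 0.38 log2 units. Klri2, which encodes an activating partner of KLRE1, read 43.3 and 20.0, a difference of 1.05 ± 0.34.

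The remaining measured Ly49 neighbours were Klra9 and Klra8. Klra9, which encodes Ly49I, read 148 under the EGR1-deficient label and 137 under the WT label, a difference of 0.05 ± 0.21. Klra8, which encodes Ly49H, a receptor for a cytomegalovirus protein, read 3.49 and 24.1 in its brightest probe and was at least 1.89-fold lower under the EGR1-deficient label. Its other probes were not above background. At the far end Magohb, which encodes an RNA-binding protein and no receptor, read 282 and 329.9, a difference of −0.29 ± 0.21.

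**Figure D3:**
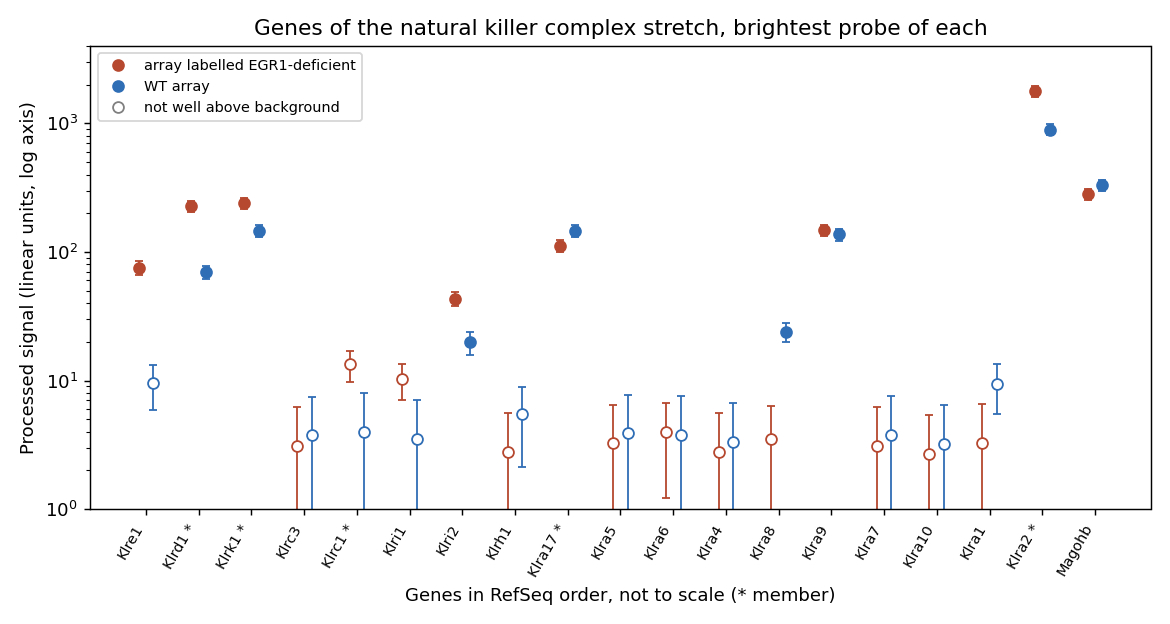
Processed signal (log axis) of the brightest probe of each gene of the natural killer complex stretch, in RefSeq order and not to scale, on both arrays, with whiskers for the scanner program's error estimate, which run off the axis where they reach 0, and members starred. Open points are not well above background. Klre1, Klrd1, Klrk1, Klri2 and Klra2 are higher under the EGR1-deficient label, Klra17, Klra8 and Magohb are higher under the WT label, and 9 of the 14 other genes are at background on both.

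A wider list of 31 lectin-like receptor genes with a probe, without the members, had 13 above background on both arrays. Whether each of them lies in the natural killer complex was not checked here. Of the 13, 5 were above 0 and 8 below, and the median difference was −0.06. Of them 2 were at least 2-fold higher (Klri2 and Klrg2) and none was 2-fold lower. Over all genes 0.707% were at least 2-fold higher, and 1.89% in the dimmest group by signal, which holds both. Klrg2, a lectin-like receptor gene, read 38.6 under the EGR1-deficient label and 18.4 under the WT label. The median of this list ran from −0.26 to 0.08 over the other ways of processing.

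No measured adaptor or signalling gene passed 2-fold. In the list of 20 measured adaptor and signalling genes 7 were above 0 and 13 below, and the median was −0.08. The largest differences were those of the adaptor gene Lcp2 (−0.62, another probe −0.73), the kinase gene Lck (0.41), Sh2d1b1 (−0.35, another probe 0.23) and Cd247, which encodes the CD3 zeta chain (0.34, another probe 0.10). Some direct partners, chosen after their values were seen, follow. Hcst, which encodes DAP10, read 731 under the EGR1-deficient label and 871 under the WT label (−0.32, with 3 further probes from −0.29 to −0.13). Tyrobp, which encodes DAP12, read 33521 and 38265 (−0.26). Ptpn6, which encodes SHP-1, read 2351 and 2333 (−0.06, other probes 0.23 and 0.10).

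No ligand gene above background on both arrays passed 2-fold. Of these 12, 6 were above 0 and 6 below, and the median was 0.06. Raet1e, of the RAE-1 family that NKG2D reads, was above background under the WT label only, at 29.3 against 14.2, and at least 2.17-fold lower under the EGR1-deficient label. Pvr, which encodes a ligand of DNAM-1, differed by 0.39 (another probe 0.11), Cadm1 by 0.38 and Cd48 by −0.34 (another probe −0.28). H2-T23, which encodes Qa-1 and was chosen after its value was seen, read 2985 and 3123 (−0.13). The NKG2D ligand genes H60b, H60c and Ulbp1, chosen in the same way, differed by 0.12, 0.26 and 0.14.

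The IL-2 and IL-15 receptor pathway held no 2-fold difference outside Il2rb. Of 17 measured genes 9 were above 0 and 8 below, with a median of 0.00. The largest differences were those of the feedback inhibitors Socs3 (−0.84), Cish (0.62) and Socs1 (−0.38) and of the kinase gene Jak1 (−0.56). Il2rg, which encodes the common gamma chain that joins IL-2R beta, read 10424 under the EGR1-deficient label and 10106 under the WT label (−0.02, chosen after its value was seen).

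The other CD3 genes lay on both sides. Cd247, described above, and Cd3e were above background on both arrays and on the side of Cd3g, at 0.34 and 0.18. Cd3e read 157 under the EGR1-deficient label and 132 under the WT label, and another probe gave −0.08. Cd3d read 12.9 and 22.0, was above background under the WT label only, and was at least 1.73-fold lower under the EGR1-deficient label, the opposite side from Cd3g. Ptcra, which encodes the pre-T cell receptor alpha chain, was not above background on either array.

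Cytotoxic granule genes beside Nkg7 went both ways. Of 14 measured genes 4 were above 0 and 10 below, and the median was −0.16. The granzyme gene Gzme read 15.4 under the EGR1-deficient label and 84.3 under the WT label, a difference of −2.52 and the only 2-fold difference among the 14. Gzmc was above background under the WT label only and at least 2.88-fold lower on the other. Gzma was above background under the EGR1-deficient label only, at 26.9 against 3.65, and at least 1.57-fold higher there. The death ligand gene Fasl read 266 and 146, a difference of 0.79.

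Markers of the cell types that are known for these genes were set beside them. Of 24 natural killer cell markers 10 were above background on both arrays, 3 under the EGR1-deficient label only, 1 under the WT label only and 10 on neither. The median difference of the 10 was 0.00, with 5 above 0. Besides Klre1, Fasl and Gzma, the largest difference was that of Klrb1c, which encodes NK1.1, at −0.65. The other markers above background on both arrays were Tbx21, which encodes the transcription factor T-bet (56.1 and 52.5), the perforin gene Prf1 (863 and 766), Cd244a (796 and 749), Cd226 (77.4 and 70.9), Cd160 (20.8 and 26.5), Sh2d1b1, Cma1 (28.0 and 27.3) and the chemokine gene Ccl5 (10213 and 12850). The 10 markers at background on both arrays were Ncr1, Eomes, Itga2, Gzmb, Klrg1, Xcl1, Cd96, Tigit, Txk and Serpinb9b. The summed level of the list, in multiples of the array's 75th percentile, was 65.3 under the EGR1-deficient label and 81.0 under the WT label. Ccl5 made up most of it, and without Ccl5 the sum ran the other way, at 12.03 and 10.75.

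T cell markers had a median of 0.18 over 13 measured genes, with 8 above 0, 5 below and none 2-fold apart. Cd4, which dendritic cells can also carry, read 932 under the EGR1-deficient label and 576 under the WT label (0.63, another probe 0.25), Cd6 differed by 0.60, and the transcription factor gene Gata3 by −0.82. Tcf7, which encodes the T lineage factor TCF-1, read 149 and 168 (−0.23, other probes −0.32 and −0.08). The 6 of the 22 at background on both arrays were Bcl11b, Lef1, Cd8a, Ctla4, Themis and Trat1. The T cell markers above background on at least 1 array summed to 12.1 under the EGR1-deficient label and 9.93 under the WT label. Without Cd4, the brightest of them, the sum was 7.24 and 6.78.

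The remaining marker lists were those of innate lymphoid, B and plasmacytoid dendritic cells. Innate lymphoid markers had a median of 0.01 over 11 genes, with a summed level of 16.1 under the EGR1-deficient label and 15.2 under the WT label. Their largest difference was that of Arg1 (−1.36), which macrophages also make, followed by those of Gata3, Icos (−0.54) and Il22 (−0.35). Plasmacytoid dendritic cell markers, the cell type best known for Klra17, had a median of −0.10 over 13 genes, 3 above 0 and 10 below, and summed to 85.4 and 87.3. Their largest differences were those of the inhibitory receptor gene Lair1 (−0.62), Klk1 (−0.56), Siglech (0.37) and the transcription factor gene Tcf4 (−0.28). The 3 above 0 were the lectin gene Siglech, Spib (0.14) and Irf8 (0.02). The other 10 were below 0, as was Klra17, while over all genes 42.6% were above 0 and the median was −0.05. Of the 10, Bst2 (−0.05), Pacsin1 (−0.04, another probe −0.22) and Cox6a2 (−0.03) lay no lower than that median. A link between this list and the Klra17 difference was not tested. Without Irf7, the brightest of the list, the sum was 63.5 and 62.2, the other way round.

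B cell markers had a median of −0.58 over 9 genes, of which 2 were at least 2-fold lower (Ebf1 at −1.15 and Cd79b at −1.09) and 3 were above 0. Over all genes 1.01% were at least 2-fold lower, and 2.51% in the dimmest group by signal, which holds both. Another Ebf1 probe was not above background on either array. Blnk differed by −0.85 and Vpreb1 by −0.71. The median changed sign to 0.32 over the 5 genes that passed a stricter filter on dim probes. Without that stricter filter, the B cell markers above background on at least 1 array summed to 14.7 under the EGR1-deficient label and 14.3 under the WT label. Dendritic cell genes had a median of −0.03 over 16 genes and summed to 405 and 442, with the growth factor receptor gene Flt3 at 0.50, Cd86 at −0.41, Csf1r at −0.39 (another probe −0.05) and Itgax at 0.37. The medians of 9 of the 12 lists lay on both sides of 0 over the ways of processing, while the 2 CD3 genes and the T cell markers stayed above it and the cytotoxic granule genes below. The part of any of these cell types in the members' differences was not tested.

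**Figure D4:**
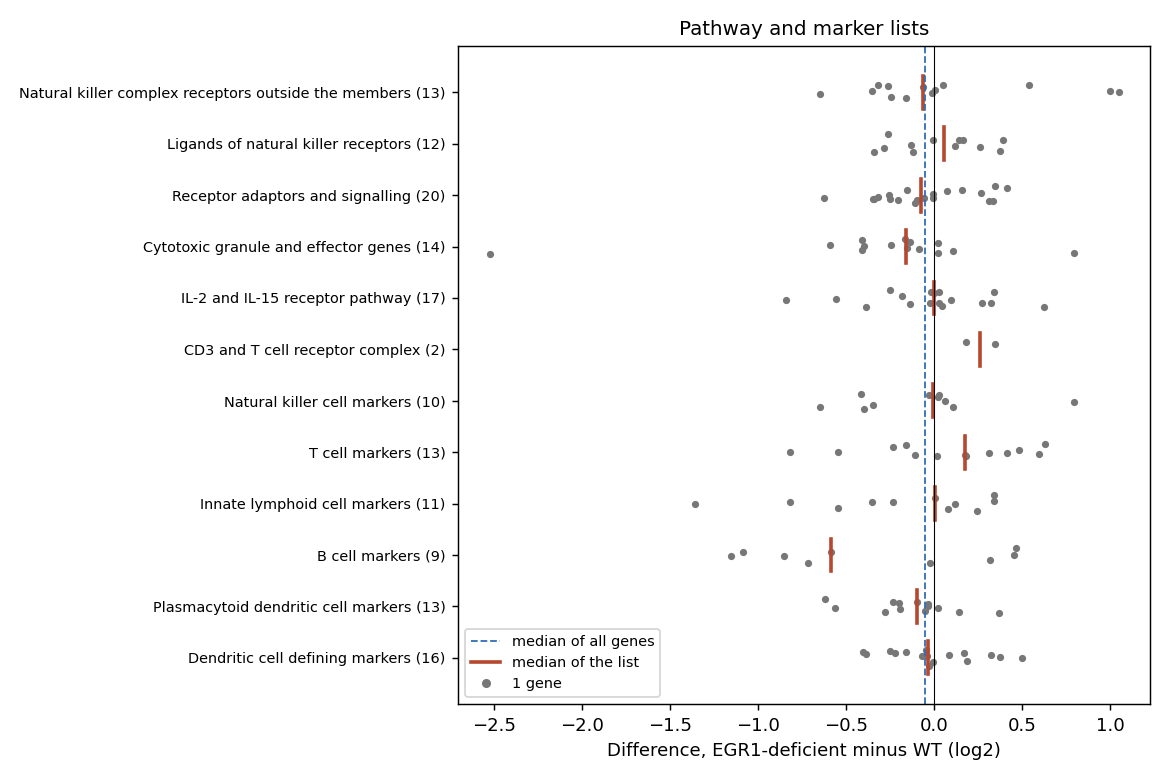
Difference between the arrays (EGR1-deficient minus WT, log2) for each gene above background on both arrays in 12 pathway and marker lists, with the number of such genes in brackets, the list median as a red bar and the median of all genes (−0.05) as a dashed line. Medians lie between −0.58 for B cell markers and 0.26 for the 2 measured genes of the CD3 complex.

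The sign of all 6 measured member differences was the same under each of the ways of processing that gave a value. Klrd1 ran from 1.02 to 1.73, Klra2 from 0.83 to 1.04, Klrk1 from 0.37 to 0.76, Nkg7 from 0.08 to 0.49, Klra17 from −0.49 to −0.35 and Il2rb from −1.18 to −0.46. These share the same 2 arrays, so they show the effect of the processing and nothing about repeat cultures.

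**Figure D5:**
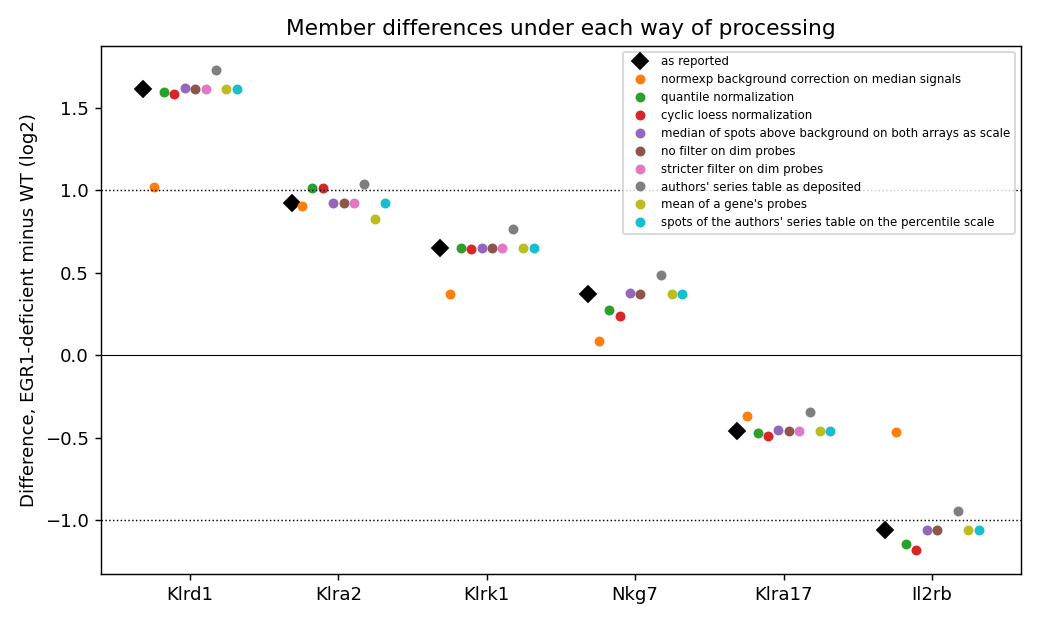
Difference between the arrays (EGR1-deficient minus WT, log2) of the 6 members above background on both arrays, as reported (black diamonds) and under each other way of processing (coloured points), with dotted lines at 2-fold. No member changes sign, Klra2 crosses the 2-fold line at 1.01 to 1.04, and the normexp points lie closest to 0 for Klrd1, Klrk1, Nkg7 and Il2rb.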

How the data were processed

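RNA of 2 samples was read on 2 one-colour Agilent arrays, scanned together per the file headers. The deposited intensity values are linear spot signals from Agilent Feature Extraction 12.1.0.3, per the file headers (version 11.5.1.1, per the submitters' processing notes), after the authors' background subtraction and detrending within each array. The authors also deposited a table of intensity values, which equals the processed signal times 1 constant per array (6.18 and 5.97) and lists 29296 spots. Of 59305 non-control spots, 59.8% under the EGR1-deficient label and 55.2% under the WT label were well above background, and none was saturated. The number of arrays limits the precision.

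From these, log2 signal minus the array's 75th percentile (191.6 and 183.0) was computed with Python 3.11.15. Outlier spots (144) were left out and repeated spots averaged. Probes were named through RefSeq accessions (assembly GRCm38.p6, names, chromosomes and gene order only, since the array design names build mm9), and the probe with the highest mean over both arrays stood for its gene. Counts used genes well above background on both arrays. The counting step was tested on simulated data with the same noise at every signal. That checks the code and not the error of dim genes. The members and gene lists were chosen with earlier results of these data known. Named genes were the members, Egr1, the neighbours on chromosome 6, up to 4 genes of largest difference per list and any gene of a list with 5 or fewer measured. All others, label checks included (Xist, Eif2s3y, H2-Ab1 and Xcr1), were chosen after their values were seen. Genes most like a member were not sought, since 2 arrays give every gene a correlation of 1 or −1. Alternatives were normexp (offset 50, limma 3.58.1, on median signals, since no mean signal was used here), quantile, loess, median scaling, no filter or a stricter filter on dim probes, the authors' table, the mean of a gene's probes and, added after seeing the data, the authors' spots on the percentile scale.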

Additional observations from a re-analysis of the deposited data

How the results depend on the processing

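No paired analysis was possible because each group has 1 array. With normexp the Klrd1 difference was 1.02, that of Il2rb −0.46 and the Cd3g bound 0.35 log2 units, members 2-fold lower numbered 0, and genes numbered 18 higher and 32 lower, with a B cell marker median of −0.13. Members 2-fold higher numbered 2 after quantile normalization and 2 after loess. Without a filter on dim probes they numbered 3 of 8 (Klrd1, Klrc1 and Cd3g), with 1280 genes higher and 971 lower. The medians were then −0.26 for the wider list of lectin-like receptors and −0.27 for B cell markers. The stricter filter left 0 members lower, 43 genes higher, 74 lower and a B cell marker median of 0.32, since fewer genes entered. The authors' table gave 2 members higher, 0 lower, 68 genes lower and a B cell marker median of 0.093, and its median over all genes was 0.06 against −0.05. Its spots on the percentile scale gave 88 genes lower and −0.022 for B cell markers. Except for the filters, the cause was not tested. Signal near background limits Klrc1, Cd3g, Il2rb and Nkg7.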
